A study of Arabidopsis thaliana with 6 samples.

Results

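TRM genes encode proteins with a TONNEAU1 (TON1) recruiting motif, and they were followed on 6 whole-transcript arrays of Arabidopsis thaliana cotyledons. The members were the probe sets with exactly 1 gene whose array symbol was TRM followed only by digits, with a deposited log2 signal of 5 or more on at least 2 of the 6 arrays. This gave 9 genes out of 15 with a TRM symbol on the array, beside 16722 probe sets with 1 gene in all. No TRM gene had more than 1 probe set of this kind. RefSeq names 8 of the 9 as TON1 recruiting motif genes: TRM15 (AT4G00440), TRM19 (AT3G53540), TRM20 (AT4G28760), TRM21 (AT5G43880), TRM22 (AT1G67040), TRM25 (AT5G62170), TRM27 (AT2G36420) and TRM30 (AT5G42710). The symbol TRM82 (AT1G03110) stands for tRNA modification in RefSeq, so this gene is a member by symbol alone and no relative of the others by name. It is given apart below.

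TRM proteins are known to bind TON1 and to bring the TTP complex to microtubules. That complex holds TON1, the phosphatase regulatory subunit TON2 and core subunits of protein phosphatase 2A. It organises cortical microtubules and the preprophase band, the microtubule ring that marks the future division plane of a plant cell. The founding members TRM1 and TRM2, also called LONGIFOLIA2 and LONGIFOLIA1, are known for promoting the lengthwise growth of leaf cells. In yeast, Trm82 is a partner subunit, without catalytic activity of its own, of an enzyme that methylates guanosine in tRNA.

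All cotyledons were wild type and came from 6-day-old seedlings grown at 22 °C under continuous light. They were cultured in VISUAL, a system that turns leaf cells into vascular cells, in a medium that held 2,4-D (an auxin, 1.25 mg/L), kinetin (a cytokinin, 0.25 mg/L) and 10 µM bikinin, which inhibits kinases of the GSK3 type. The sugar was 5% sucrose or 5% glucose, and each sugar was sampled at 0, 24 and 48 h of induction. Each sugar and time was 1 array, so nothing was replicated within a group and the small number of arrays limits the precision. The p-values rest on how far these arrays scatter, and that scatter may be technical.

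Sampling times follow the sample titles. A second time label matched the title of the glucose 0 h array alone; it read 34 h where the title of a glucose array has 24 h, and 72 h on the remaining 4. Mesophyll markers, present at 5 of 10 genes, went with the titles of the 0 h arrays. Their summed linear signal was 10901.6 on the sucrose 0 h array and 11164.2 on the glucose 0 h array. On the 4 cultured arrays it was 327.1 to 965.7. PRK, PSAN and LHCB4.2 were at the floor on the sucrose 24 h array, and PRK on the sucrose 48 h array. These sums set 0 h apart from culture only and do not check the 24 h titles against the 48 h titles. Guard cell markers, at 4 of 6 genes, summed to 1601.5 and 1934.1 at 0 h and to 356.2 to 705.5 in culture. MUTE was at the floor on every array and SPCH on the 4 cultured arrays. None of the 4 epidermis genes had a probe set. The tissue therefore changed in its cell type markers together with time, and in bulk RNA fewer cells of a type and less RNA per cell cannot be told apart. In 8 background control probe sets of high GC content, the median signal as deposited was 8.71 for sucrose and 9.40 for glucose at 0 h, and 7.68 to 8.50 in culture (log2). Their part in the values below was not tested.

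Signals below are the deposited log2 values, brought to 1 level between arrays, and are called scaled log2 signals. Values at or below 4.90, the 40th percentile of all values pooled, were treated as not above a floor. The change with time was estimated over both sugars with limma, 2 arrays against 2, with p-values adjusted by Benjamini-Hochberg over all 25827 probe sets tested. All 9 members were among these. TRM30 passed the level rule through 3 cultured arrays only, so a difference from 0 h was built into its entry, and counts over the members are given as descriptions.

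TRM30 was at the floor at 0 h and well above it at 48 h. On its single arrays the signal came later and stayed lower in sucrose than in glucose. For TRM30 this sugar difference in culture did not pass (adjusted p = 0.26 in limma). In sucrose its scaled log2 signal was 4.15 at 0 h, 4.39 at 24 h and 6.49 at 48 h. In glucose it was 4.17 at 0 h, 6.54 at 24 h and 8.86 at 48 h. Thus 3 arrays lay at the floor, the 0 h pair and sucrose 24 h, and the other 3 lay above it. At 48 h it averaged 7.68 over both sugars, at least 6.86-fold above the floor that bounds the 0 h arrays (adjusted p = 0.0029 in limma). A difference from 0 h was built into its entry by the level rule, so this p-value adds no support of its own. Within the sugars, 1 array against 1, the 48 h signal exceeded that of 0 h by at least 3.02-fold in sucrose and by at least 15.6-fold in glucose. At 24 h the difference from 0 h over both sugars was 0.82 ± 0.30 (SE) and did not pass (adjusted p = 0.075 in limma). That mean joins an array at the floor and 1 at least 3.13-fold above it. The 24 h difference passed in limma with the deposited values left unscaled (0.90, adjusted p = 0.046) and with no floor or filter (1.30, adjusted p = 0.027). It did not pass with median centring (0.87, adjusted p = 0.053), quantile normalization (0.78, adjusted p = 0.10) or a floor at the median (0.44, adjusted p = 0.39). Nor did it with no intensity trend (0.82, adjusted p = 0.056) or an additive sugar term (0.82, adjusted p = 0.28). Without the glucose 48 h array or the sucrose 48 h array it was also 0.82. There, only the floored 0 h pair gave the gene's own spread, so those fits are not read as passing or failing.

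TRM15 also rose late and also read lower in sucrose on its single arrays, though it was well above the floor from the start. Its sugar difference in culture did not pass either (adjusted p = 0.39 in limma). Its scaled log2 signals in sucrose were 7.69, 7.86 and 8.85 at 0, 24 and 48 h. Those in glucose were 7.94, 8.53 and 10.03. The 48 h arrays both lay above the 0 h and 24 h arrays of their own sugar, while the sucrose 24 h array lay between the 0 h arrays. The difference of 48 h from 0 h was 1.62 ± 0.24 (SE), a 3.08-fold rise that passed (adjusted p = 0.0064 in limma), and that of 24 h from 0 h was 0.38 ± 0.24 and did not (adjusted p = 0.25).

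TRM19 and TRM25 formed the early pattern, already higher at 24 h in both sugars and still high at 48 h. TRM19 had scaled log2 signals of 6.89, 8.70 and 9.37 at 0, 24 and 48 h in sucrose, and of 7.05, 9.18 and 9.03 in glucose. Every cultured array lay above both 0 h arrays. TRM19 rose 3.93-fold by 24 h (1.97 ± 0.28 on the log2 scale, SE; adjusted p = 0.006 in limma) and was 4.70-fold above 0 h at 48 h (2.23 ± 0.28; adjusted p = 0.0039). TRM25 had 5.73, 8.14 and 7.89 in sucrose and 5.69, 8.06 and 7.29 in glucose. Its 0 h pair and its 24 h pair were each close, and the cultured arrays again all lay above the 0 h arrays. It rose 5.23-fold by 24 h (2.39 ± 0.29; adjusted p = 0.0046) and was 3.67-fold above 0 h at 48 h (1.88 ± 0.29; adjusted p = 0.0071).

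TRM82, the tRNA modification gene, shared the early pattern. Its scaled log2 signals were 6.24, 8.24 and 8.41 at 0, 24 and 48 h in sucrose, and 5.17, 8.45 and 7.53 in glucose. The 0 h arrays were 1.07 apart, with sucrose higher, before any difference in culture time. All 4 cultured arrays lay above both of them. The rise was 6.25-fold at 24 h (2.64 ± 0.48, SE; adjusted p = 0.011 in limma) and 4.81-fold at 48 h (2.27 ± 0.48; adjusted p = 0.017).

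**Figure D1:**
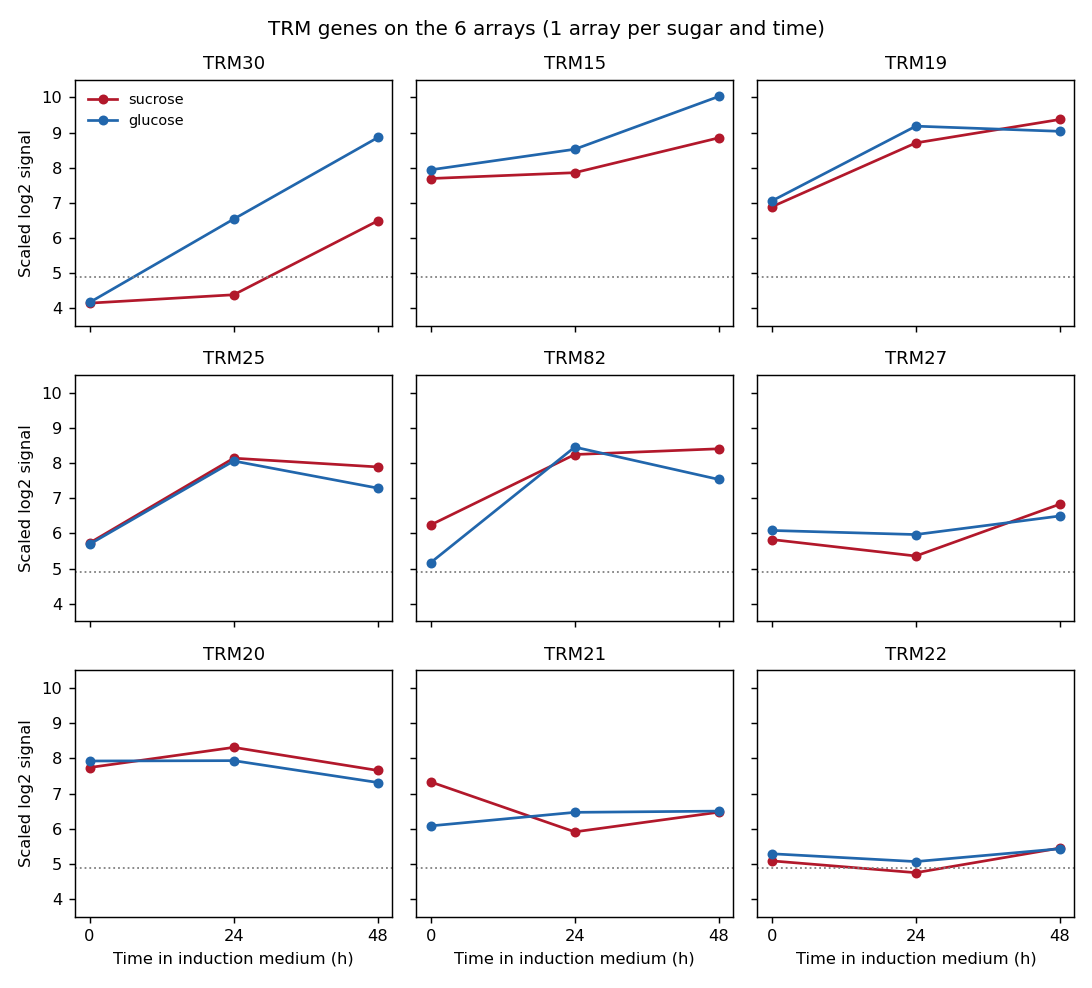
Scaled log2 signal of the 9 TRM genes (y axis) against time in induction medium in hours (x axis), 1 array per point, in sucrose (red) and glucose (blue). The dotted line is the floor at 4.90. TRM30 left the floor by 24 h in glucose (6.54) and was still below it in sucrose (4.39), and the lines of TRM19 and TRM25 climbed in both sugars by 24 h.

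The remaining 4 members, TRM27, TRM20, TRM21 and TRM22, passed the test at neither time. TRM27 had scaled log2 signals of 5.83, 5.36 and 6.83 at 0, 24 and 48 h in sucrose, and of 6.09, 5.97 and 6.50 in glucose. Both 48 h arrays lay above all others, and the difference of 48 h from 0 h was 0.71 ± 0.34 (SE; adjusted p = 0.15 in limma). TRM20 had 7.74, 8.31 and 7.66 in sucrose and 7.93, 7.94 and 7.31 in glucose. The lowest value of each sugar was at 48 h, and it differed from 0 h by 0.29 ± 0.24 at 24 h and by -0.35 ± 0.24 at 48 h.

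TRM21 had 7.33, 5.91 and 6.47 at 0, 24 and 48 h in sucrose, and 6.08, 6.47 and 6.50 in glucose. The sucrose 0 h array stood 1.25 above the glucose 0 h array, and the differences from 0 h had opposite signs in the sugars. Over both sugars they were -0.52 ± 0.49 at 24 h and -0.22 ± 0.49 at 48 h (SE), and the sign turned at both times without the sucrose 0 h array (0.11 and 0.41). TRM22 had 5.09, 4.75 and 5.45 in sucrose and 5.29, 5.07 and 5.43 in glucose. It stayed within 0.56 of the floor on every array and lay at it on the sucrose 24 h array, so little of a change could have been seen. With unscaled values its 24 h difference of -0.21 turned to 0.01.

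Counted over the 9 members, 3 rose and 0 fell at 24 h, where 24.2% of all tested probe sets rose and 19.8% fell (44% in either direction). At 48 h, 5 rose and 0 fell, where 22.1% of all rose and 19.9% fell (42% in either direction). The 3 that rose at 24 h, TRM19, TRM25 and TRM82, rose at 48 h as well. TRM15 and TRM30 joined them, TRM30 with the difference built into its entry. Of the 8 TON1 recruiting motif genes alone, 2 and 4 passed. The members' median log2 difference was 0.38 at 24 h and 1.62 at 48 h, beside 0.10 and 0.13 for all tested probe sets. For the 8 TON1 recruiting motif genes alone the median was 0.33 and 1.17, with TRM30 still among them. The comparisons with 0 h share the 0 h arrays. The 3 rises at 24 h did not pass without the sucrose 24 h array or the glucose 24 h array, and neither did any other probe set. Their differences were then 1.57 to 3.19. The 5 rises at 48 h did not pass without the sucrose 48 h array or the glucose 48 h array, and again no other probe set did. Their differences were then 1.37 to 3.14. Without the glucose 24 h array, TRM15 and TRM82 did not pass at 48 h (1.62 and 2.27). Without the sucrose 24 h array, TRM82 did not pass at 48 h either (2.27).

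**Figure D2:**
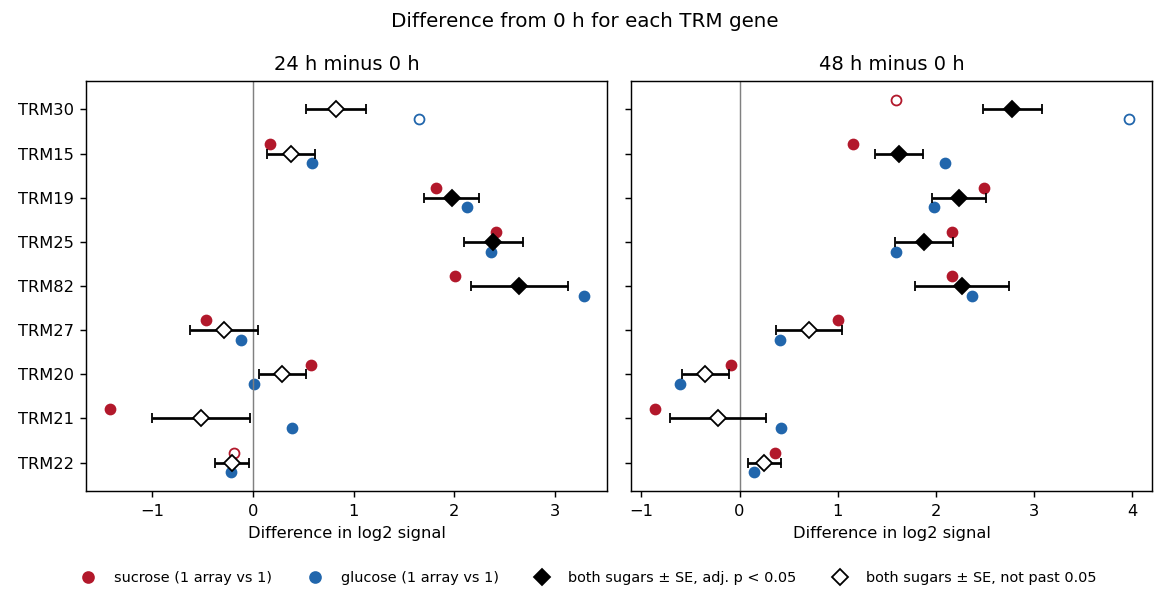
Difference in log2 signal from 0 h (x axis) for each TRM gene (rows) at 24 h (left) and 48 h (right). Diamonds with bars are the estimate over both sugars ± SE, filled where the adjusted p was under 0.05. Circles are sucrose (red) and glucose (blue), 1 array against 1, open where 1 of the arrays lay at the floor and left out where both did. TRM19, TRM25 and TRM82 were already higher at 24 h (1.97, 2.39 and 2.64), and TRM15 and TRM30 passed at 48 h only (1.62 and 2.78).

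Within a sugar, members were also counted at a 2-fold difference, 1 array against 1. In sucrose at 24 h, TRM19, TRM25 and TRM82 were at least 2-fold above 0 h, 3 of 9 where 21.7% of all tested probe sets were, and TRM21 was the 1 member at least 2-fold below it (17.1% of all). In glucose at 24 h these 3 and TRM30 were above, 4 of 9 (25.1% of all), and 0 below (18.5%). At 48 h in sucrose 6 were above, now with TRM15, TRM30 and TRM27 (22.9% of all), and 0 below (19.2%). At 48 h in glucose 5 were above, without TRM27 (19.6% of all), and 0 below (17.9%). From 24 to 48 h, TRM27 and TRM30 were at least 2-fold higher in sucrose (5.41% of all) and TRM15 and TRM30 in glucose (7.57% of all). None was 2-fold lower in sucrose (4.29% of all) or in glucose (11.4%).

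Between 24 and 48 h, 0 of the 9 members passed, as did 0 of all 25827 probe sets (0%), although 5 members and 4873 probe sets had an unadjusted p under 0.05 in limma. The largest member differences were those of TRM30 (1.96 ± 0.30, SE; adjusted p = 0.093), TRM15 (1.25 ± 0.24; adjusted p = 0.11) and TRM27 (1.001 ± 0.34; adjusted p = 0.23), all higher at 48 h. TRM20 (-0.64 ± 0.24; adjusted p = 0.25) and TRM25 (-0.51 ± 0.29; adjusted p = 0.39) were the lowest. The TRM30 difference is a lower bound, since its sucrose 24 h array lay at the floor. The floored 0 h pair of TRM30 added nothing to the spread behind its error. The TRM82 difference of -0.38 hid sugars that moved apart, with 0.16 in sucrose and -0.92 in glucose.

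The study set sucrose against glucose in the same medium, and no TRM gene differed between them past the threshold. Over the cultured arrays 0 of 9 members and 0 of all 25827 probe sets passed (0%). At an unadjusted p under 0.05 there were 2 members and 2614 probe sets. The 2 were TRM30, with a sucrose minus glucose difference of -2.01 ± 0.30 (SE; adjusted p = 0.26 in limma), and TRM15, with -0.92 ± 0.24 (adjusted p = 0.39). The other 7 differed by -0.29 to 0.36. With both of its 0 h values floored, that pair added nothing to the spread behind the error of TRM30. Its sucrose 24 h value was floored too, so the size of its sugar difference is a lower bound.

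At 24 h TRM30 was at least 3.13-fold lower in sucrose (4.39, at the floor) than in glucose (6.54). At 48 h it was 5.16-fold lower in sucrose (6.49) than in glucose (8.86), and TRM15 was 2.26-fold lower in sucrose (8.85) than in glucose (10.03). In a model that kept the 4 cultured arrays apart, each time set 1 array against 1 and the 0 h pair alone gave the residual spread, so the test had little to rest on, least of all for TRM30 with its floored 0 h pair. In it these differences at 24 h and 48 h did not pass for any member or any probe set (0%), with 2955 probe sets at an unadjusted p under 0.05 at 24 h and 4471 at 48 h. The change of the sugar difference between the times rested on the same single arrays and likewise did not pass for any member or any probe set. Between 1 array and 1, 5.68% of tested probe sets were at least 2-fold lower in sucrose at 48 h and 3.34% at 24 h. Among the members these were TRM30 and TRM15 at 48 h and TRM30 at 24 h. At 0 h, TRM21 and TRM82 were more than 2-fold higher in sucrose (differences of 1.25 and 1.07), as were 4.63% of all tested probe sets, and 0 members were 2-fold lower (1.46% of all). No member was 2-fold higher in sucrose at 24 h (3.17% of all) or at 48 h (8.05%).

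The sucrose 48 h array read close to the glucose 24 h array for several members, 1 array against 1. The closest were TRM21, TRM82 and TRM30. TRM30 had 6.49 on the sucrose 48 h array and 6.54 on the glucose 24 h array, and TRM82 had 8.41 and 8.45. TRM21 had 6.47 on both. The widest gap was that of TRM27, with 6.83 on the sucrose 48 h array and 5.97 on the glucose 24 h array, and 0 of 9 members differed by 2-fold between these arrays. Of all tested probe sets, 3.77% were at least 2-fold higher and 2.70% at least 2-fold lower in this pair. Lying within 2-fold was thus common to most probe sets and not particular to the members.

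**Figure D3:**
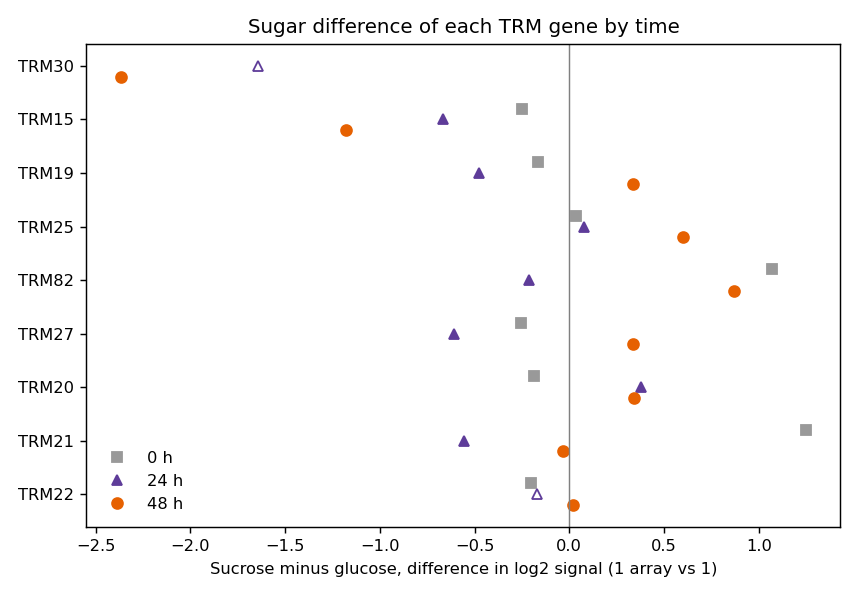
Sucrose minus glucose in log2 signal (x axis), 1 array against 1, for each TRM gene (rows) at 0 h (squares), 24 h (triangles) and 48 h (circles). Open symbols are pairs with 1 array at the floor, and a pair with both at the floor is left out. TRM30 and TRM15 lay left of 0 at 48 h (-2.37 and -1.18), and TRM21 and TRM82 lay right of it at 0 h (1.25 and 1.07).

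The genes just inside the level rule were TRM22, at 5 or more on 4 arrays, and TRM30, on 3. Just outside was TRM26 (AT2G17550), whose highest deposited value fell short of 5 by less than 0.01. It was above the floor on the 0 h arrays alone, with scaled log2 signals of 5.14 in sucrose and 5.04 in glucose. All 4 cultured arrays lay at the floor, so the size of its difference from 0 h was not measured. The other 5 below the rule, TRM23, TRM24, TRM28, TRM33 and TRM34, had mean deposited log2 signals of 3.79 to 4.45. RefSeq names 34 genes as TON1 recruiting motif genes, and 15 of them had a probe set with 1 gene. The other 19, LONGIFOLIA1 and LONGIFOLIA2 among them, were not analysed here.

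The fifteenth of these genes is listed on the array as ATOBGM (AT1G07620) and has TRM32 as a synonym in RefSeq. It went the opposite way from the members that rose, and its scaled log2 signals were 8.23, 6.94 and 5.45 at 0, 24 and 48 h in sucrose, and 7.96, 5.79 and 4.96 in glucose. Both sugars were lower at each later time. It fell by 1.73 ± 0.32 on the log2 scale at 24 h (SE; adjusted p = 0.012 in limma) and the difference at 48 h was -2.90 ± 0.32 (adjusted p = 0.0032).

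Partners of the TRM proteins were thinly covered. Of 13 TTP complex genes, only TON1B (AT3G55005), which encodes a TON1 protein, had a probe set with 1 gene. It rose 3.51-fold at 48 h (1.81 ± 0.31 on the log2 scale, SE; adjusted p = 0.0091 in limma) and differed by 0.71 ± 0.31 at 24 h (adjusted p = 0.11). None of 18 OFP genes, whose ovate family proteins are known to bind TRM proteins, had a probe set with 1 gene. Of 35 genes of microtubule organisation, 3 were tested, of which 1 rose at 24 h (24.2% of all tested probe sets) and 2 at 48 h (22.1% of all). The highest was TUBG1 (AT3G61650), a gamma-tubulin gene, which rose by 1.91 ± 0.22 at 24 h and 2.76 ± 0.22 at 48 h. The lowest, AT5G12150, differed by -0.14 ± 0.20 and -0.19 ± 0.20.

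Of 15 tubulin genes, 5 were tested, of which 1 rose and 1 fell at 24 h (24.2% and 19.8% of all tested probe sets), and 3 rose and 1 fell at 48 h (22.1% and 19.9% of all). TUB7 (AT2G29550) rose by 1.58 ± 0.28 and 2.26 ± 0.28. TUB5 (AT1G20010) was floored on 1 array of 24 h and both of 48 h. It fell by at least 2.11 ± 0.23 at 24 h and was at least 4.66-fold lower at 48 h. Of 28 cell division genes, 4 were tested and all 4 rose at both times, beside the same shares. AUR1 (AT4G32830), an Aurora kinase gene, rose by 3.16 ± 0.43 at 24 h, AUR2 (AT2G25880) exceeded its floored 0 h signal by at least 36.0-fold at 48 h, and the replication gene PRL (AT4G02060) was lowest (2.07 ± 0.52 and 2.52 ± 0.52). The median differences at 24 and 48 h were 0.80 and 0.94 for microtubule organisation, 0.48 and 1.39 for tubulins and 2.65 and 3.92 for cell division. For all tested probe sets they were 0.10 and 0.13. No gene of these lists passed between 24 and 48 h or between the sugars, where no probe set did.

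The sums of vascular markers also differed between the arrays. Xylem vessel markers, at 3 of 10 genes, had a summed linear signal of 771.1, 464.1 and 740.5 at 0, 24 and 48 h in sucrose and of 748.0, 720.6 and 3326.9 in glucose, with IRX15 at the floor on the 0 h and 24 h arrays. Phloem markers, at 3 of 8 genes, summed to 114.9, 146.7 and 305.4 in sucrose and to 103.4, 204.8 and 438.7 in glucose, with OPS floored at 0 h, CLE45 at 0 and 24 h, and CLE26 at 24 h in both sugars and at 48 h in sucrose. Procambium markers, at 3 of 6 genes, summed to 640.6, 897.9 and 1347.0 in sucrose and to 357.8, 910.7 and 982.4 in glucose, with MOL1 at the floor on the 0 h arrays and the sucrose 24 h array. The highest xylem and phloem sums were thus on the glucose 48 h array, as was the highest signal of TRM30 and of TRM15. The part of these cell types in the TRM values was not tested.

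The genes whose pattern over the 6 arrays was most like that of the members with the widest range were sought among 6136 genes for TRM30 and 6135 for TRM82. For TRM30 (range 3.96) they were AT5G51890 (Pearson r = 0.999), the ATP-citrate lyase subunit gene ACLA-2 (AT1G60810; r = 0.998) and TBL33 (AT2G40320; r = 0.993), of the trichome birefringence-like family. Members of that family are known to acetylate cell wall polysaccharides. AT5G51890 had scaled log2 signals of 8.402, 8.24 and 9.93 at 0, 24 and 48 h in sucrose and of 8.35, 9.90 and 12.32 in glucose. Like TRM30 it was lower in sucrose at 24 and 48 h. For TRM82 (range 3.29) they were AT1G13040 (r = 0.999), AT2G43110 (r = 0.998) and AT1G50910 (r = 0.997). AT2G43110 shared the gap at 0 h, with 7.49 in sucrose and 6.15 in glucose. These correlations describe 6 arrays that share time and sugar. The genes were chosen by them, so shared high and low arrays follow from that choice.

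**Figure D4:**
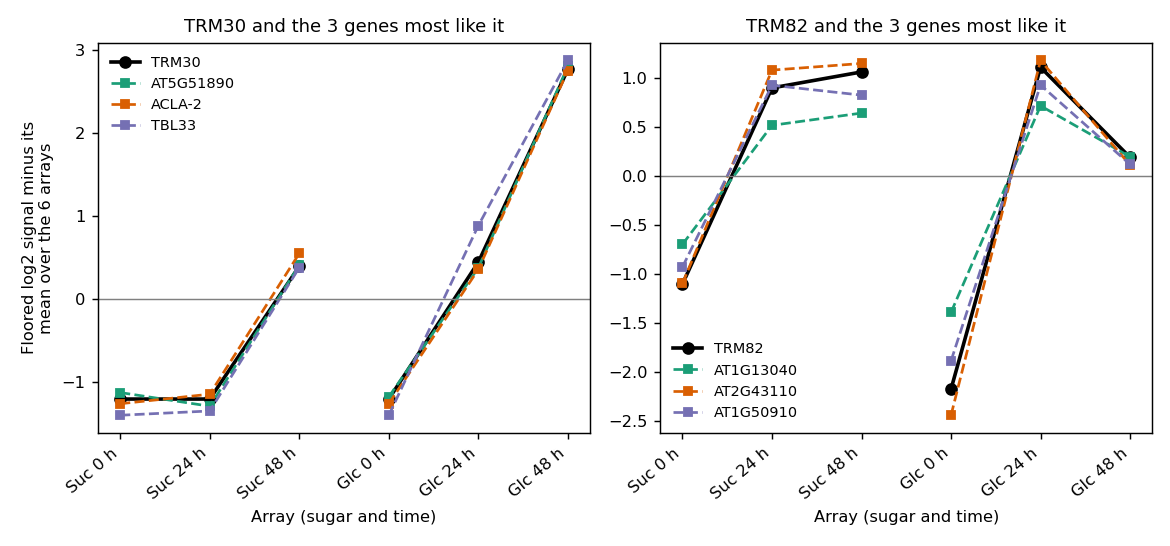
Log2 signal after the floor, minus each gene's mean over the 6 arrays (y axis), for TRM30 (left) and TRM82 (right) in black and the 3 genes most like each in colour, by array (x axis). TRM30 and its 3 neighbours in pattern peaked together on the glucose 48 h array, and TRM82 and its neighbours were lowest on the glucose 0 h array.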

How the data were processed

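RNA of whole cotyledons was amplified, labelled with biotin and hybridised to 6 arrays, per the labels' protocols. The authors' deposited values are log2 signals per probe set, and the submitters' processing notes name GCOS. How background was corrected and how arrays were normalized is not given in the sources used here. Nor is the log base, inferred as base 2 from the largest value, 14.2. Amplification can distort relative levels, and a low signal is partly background.

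Of 38408 probe sets, 98 controls were dropped. The platform table gave 1 gene to 16722 of the rest, several to 759 and none to 20829, and 16574 were matched to RefSeq (TAIR10.1). No coordinates or sequences were used. Arrays were scaled to a common trimmed mean (2% off each end, linear scale, 166.5 to 207.4 beforehand, a spread past the 5% tolerance). After the floor at the 40th percentile, 25827 probe sets exceeded it on 2 or more arrays and entered the tests.

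The limma 3.58.1 model (R 4.3.3, intensity trend, two-sided, Benjamini-Hochberg at 0.05) held a mean for each time plus a sugar term, sucrose minus glucose, in culture. Its 2 residual degrees of freedom (3.24 more from the prior) assume that the 0 h arrays differ only by error and that the sugar difference stays the same from 24 to 48 h. A second model, with each cultured array apart, had 1. The scripts were tested on simulated data. All TRM members are named. The 3 most correlated genes (above the floor on at least 4 arrays, range of at least 1) are named for the 2 members of widest range, and of each gene list the highest and lowest difference. ATOBGM and the genes below the level rule lie outside this and were named after their values were seen. The members and lists were chosen with earlier results of these data known.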

Additional observations from a re-analysis of the deposited data

Results flagged for a closer look

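TRM21 moved opposite ways in the sugars, and that difference was not tested. At 24 h it was lower than at 0 h in sucrose (-1.42) and higher in glucose (0.39), and at 48 h it was lower in sucrose (-0.86) and higher in glucose (0.42), 1 array against 1 each. The cultured arrays themselves lay between 5.91 and 6.50, and the 0 h arrays at 7.33 in sucrose and 6.08 in glucose.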

How the results depend on the processing

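The 8 member rises that passed kept their direction and stayed past the threshold in all 56 values from the 7 alternatives that used every array (values as deposited, quantile normalization, median centring, no floor, a higher floor, no intensity trend, and sugar as an additive term). Leaving out 1 array at a time, 27 of their 48 values stayed past the threshold and 21 did not, with none reversed. The members called ranged from 0 to 3 at 24 h and from 0 to 5 at 48 h. With 1 array of a time left, that array is assumed to vary like the others. TRM82 rested most on single arrays: at 24 h its adjusted p was 0.11 without either 48 h array and at 48 h 0.13 without either 24 h array, and the 48 h rise of TRM15 had an adjusted p that rounds to 0.05 without either 24 h array, just past the threshold for sucrose and just short of it for glucose. In all probe sets, calls at 24 h were 11365, against 0 without either 24 h array, 5858 and 6124 when sucrose 48 h or glucose 48 h was dropped, and 7281 when glucose 0 h was. Calls at 48 h were 10849, against 0 without either 48 h array, 6351 and 6483 when sucrose 24 h or glucose 24 h was dropped. Between 24 and 48 h there were 0, against 169 with no floor, and 426 or 328 when the 0 h array of sucrose or glucose was dropped. For sucrose minus glucose there were 0, against 4 under each of these 3. Unscaled values moved the median of all tested probe sets at 24 h to 0.36 and at 48 h to 0.28.

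Differences that had not passed changed sign as follows. With unscaled values, TRM22 at 24 h turned to 0.0094, sucrose minus glucose to 0.014 for TRM19 and at 48 h to 0.13 for TRM21, and the change of the sugar difference to 0.12 for TRM20. With quantile normalization, TRM22 turned to -0.17 for sucrose minus glucose at 48 h and to -0.0197 for the change. A floor at the median gave 0.0144 for sucrose minus glucose of TRM27, and the additive sugar term gave 0.22 for TRM21. Leaving out 1 array at a time, TRM21 ranged from -1.14 to 0.11 at 24 h and from -0.85 to 0.41 at 48 h (0.04 when glucose 48 h was dropped), and TRM27 from -0.77 to 0.18 at 24 h. For 48 h minus 24 h, TRM19 ranged from -0.15 to 0.67 and TRM82 from -0.92 to 0.16. Sucrose minus glucose ranged from -0.48 to 0.34 for TRM19, from -0.61 to 0.34 for TRM27, from -0.17 to 0.0199 for TRM22 and from -0.21 to 0.87 for TRM82. The causes were not tested. The labels give no replicate numbers, so arrays could be paired across times by sugar only. The additive sugar term is that blocked fit: 3 members passed at 24 h and 5 at 48 h, as without it, and TRM30 at 48 h had an SE of 0.57 and an adjusted p of 0.013 in limma. No member gene had another probe set with 1 gene, so that alternative was not run, and with the floor at the median TRM22 was not tested.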
